A study of Mus musculus with 12 samples.

Results

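The genes described here are the mouse zinc finger genes named Zfp600 to Zfp999, with no letter after the number. They were chosen by name alone, and no measured value entered the rule, though earlier results of these data were known. The mRNA table held 133 such rows and that of long RNA held 131, each among 36883 rows. Zfp644 and Zfp956 were single-name rows in the mRNA table and shared a row with another gene in the long RNA table. The cells were mouse embryonic stem (ES) cells, cultured in serum medium with leukemia inhibitory factor. One group was wild type and the other Drosha-deficient, and for the methylation samples of the same series both were labelled as AB1 cells, of strain background 129Sv/Ev, while the RNA labels name no line. Drosha is the nuclear ribonuclease that frees microRNA hairpins from their primary transcripts. The labels do not say how the Drosha locus was changed or whether the cells are 1 clone. The main comparison rests on 4 libraries, 1 for each genotype in mRNA and in long RNA. The mRNA was isolated with an mRNA kit, and long RNA is the fraction left after short RNA was separated. Short RNA, with 1 further library for each genotype, is described briefly. No difference below thus has a replicate check. Where a pair of levels is given, the wild-type level stands first.

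Most genes with these names encode proteins with an array of zinc fingers of the cysteine-histidine type, which read DNA sequence. Many carry a KRAB domain, which binds the corepressor TRIM28 (KAP1). TRIM28 in turn recruits the histone methyltransferase SETDB1 and, in early embryonic cells, silencing and DNA methylation at endogenous retroviruses and other repeats. These genes lie in tandem clusters that differ greatly between mammals, and neighbours in a cluster can be very similar in sequence, so reads from one copy can be counted for another. Other genes with Zfp names lack a KRAB domain and act in transcription, splicing or ribosome assembly.

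Some of these genes shared a stretch of promoter sequence. RefSeq promoter windows (GRCm38.p6), which hold 250 bases before and 50 after an annotated start, were found for 113 of the 133 members. The letters TGCCAGTCAG, searched on both strands, stood in a window of 6 of the 113 (5.31%). They stood in 107 of all 27025 genes with such a window (0.396%) and in 0 of 158 genes named Zfp1 to Zfp599. Among RefSeq genes whose present symbol lies between Zfp600 and Zfp999, which include genes that the tables list under older names, 18 of 149 held it (12.1%). Each of the 6 printed windows also held CCAATCA, which 26.5% of the members and 9.0% of all genes held. The 2 motifs do not overlap in these windows. TGCCAGTCAG began 31 to 84 bases before the start, and CCAATCA lay 24 bases farther upstream in 5 genes and 23 in Zfp873. The motif was picked after the windows and values had been seen, and a match is a description of letters, not a known binding site. The windows are printed because they carry this shared block, with both motifs in capitals. They are Zfp951 (chr5:104859978-104860277, minus strand), Zfp936 (chr7:43177340-43177639, plus strand), Zfp932 (chr5:109996260-109996559, plus strand), Zfp931 (chr2:178078376-178078675, minus strand), Zfp873 (chr10:82047873-82048172, plus strand) and Zfp640 (chr13:66680754-66681053, minus strand).
Zfp951: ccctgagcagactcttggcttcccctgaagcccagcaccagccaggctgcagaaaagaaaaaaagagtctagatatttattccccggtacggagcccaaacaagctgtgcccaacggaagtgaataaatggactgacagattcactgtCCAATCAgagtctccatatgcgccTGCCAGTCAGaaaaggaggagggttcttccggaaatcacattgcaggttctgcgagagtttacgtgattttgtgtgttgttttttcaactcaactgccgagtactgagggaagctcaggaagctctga
Zfp936: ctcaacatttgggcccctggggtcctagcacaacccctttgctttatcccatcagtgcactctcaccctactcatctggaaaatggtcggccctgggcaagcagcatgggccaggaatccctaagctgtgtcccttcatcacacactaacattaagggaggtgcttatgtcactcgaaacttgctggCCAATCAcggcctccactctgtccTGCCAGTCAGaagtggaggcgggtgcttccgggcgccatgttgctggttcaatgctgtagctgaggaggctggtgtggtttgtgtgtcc
Zfp932: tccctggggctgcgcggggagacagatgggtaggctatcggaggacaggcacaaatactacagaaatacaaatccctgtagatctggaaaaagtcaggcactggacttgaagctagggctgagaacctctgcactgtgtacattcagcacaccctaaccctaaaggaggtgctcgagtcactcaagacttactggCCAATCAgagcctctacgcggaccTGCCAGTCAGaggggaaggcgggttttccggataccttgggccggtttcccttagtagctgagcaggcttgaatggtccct
Zfp931: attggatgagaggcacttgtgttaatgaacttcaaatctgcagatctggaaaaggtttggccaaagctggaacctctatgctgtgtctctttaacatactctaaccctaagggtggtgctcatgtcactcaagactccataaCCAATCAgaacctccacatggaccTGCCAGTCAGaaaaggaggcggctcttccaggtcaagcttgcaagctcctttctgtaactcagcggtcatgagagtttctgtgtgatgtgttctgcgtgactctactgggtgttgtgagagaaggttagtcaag
Zfp873: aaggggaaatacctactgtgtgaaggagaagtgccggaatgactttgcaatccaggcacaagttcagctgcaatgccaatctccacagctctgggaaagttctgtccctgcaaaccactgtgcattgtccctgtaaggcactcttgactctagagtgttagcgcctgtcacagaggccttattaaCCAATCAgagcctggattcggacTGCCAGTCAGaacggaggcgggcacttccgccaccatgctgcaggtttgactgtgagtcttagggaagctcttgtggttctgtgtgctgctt
Zfp640: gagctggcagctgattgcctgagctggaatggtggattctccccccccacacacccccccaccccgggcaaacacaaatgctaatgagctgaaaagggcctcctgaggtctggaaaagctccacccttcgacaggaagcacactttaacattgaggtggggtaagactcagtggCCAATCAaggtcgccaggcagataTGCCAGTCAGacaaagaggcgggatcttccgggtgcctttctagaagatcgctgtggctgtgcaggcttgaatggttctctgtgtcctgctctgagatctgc

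For 3 of these genes the RefSeq start lies outside the locus the tables give, by 9.58 kb for Zfp936, 10.29 kb for Zfp873 and 7.47 kb for Zfp640, and their windows are not part of that locus. The member windows held a median of 14 CG dinucleotides in 300 bases, against 16 for Zfp1 to Zfp599 and 7 for all genes. The printed windows are poorer, with 3 CG in Zfp931 and 9 in Zfp932 as the extremes.

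Both pairs of libraries are described in FPKM, a deposited level that divides a gene's fragments by its transcript length and by the depth of the library. From the spacing of the lowest values, 1 fragment on a transcript of 1 kb was worth 0.0466 FPKM in wild-type and 0.0413 FPKM in Drosha-deficient mRNA, and 0.0544 and 0.0458 FPKM in long RNA.  A transcript of 2 kb at 1 FPKM would thus rest on 36.8 to 48.4 fragments, and counting error alone is sizeable for the many members near that level. Drosha itself had 42.1 FPKM in wild-type and 6.22 FPKM in Drosha-deficient mRNA, with 21.2 and 4.34 FPKM in long RNA, which is the direction the labels give. The ES cell markers were present, and none of the 8 measured in mRNA or the 7 measured in long RNA differed 2-fold. Pou5f1, the central pluripotency factor, had 562 and 700 FPKM in mRNA. Of 17 fibroblast markers, 13 were measured in each fraction. Among them 8 were lower and none higher in Drosha-deficient mRNA, and 7 were lower in long RNA. Their summed level was 196 and 23.8 FPKM in mRNA, with 105 and 12.3 FPKM in long RNA. None was at 0 in both libraries. Several of those called lower, such as Postn (2.03 and 0.0147 FPKM in mRNA), reached 1 FPKM only in wild type, so their direction was fixed by that minimum. Others, such as Col1a1 (59.9 and 4.10 FPKM) and Tagln (65.0 and 5.79 FPKM), reached it in both mRNA libraries. Among 11 genes that mark the 2-cell-like state, found in few cells of ES cultures, 10 were measured, and each of the 10 was higher in both fractions. Over all measured rows 8.64% were higher and 7.93% lower in mRNA, and 6.26% were higher and 6.89% lower in long RNA. Several of the 10, such as Tcstv1 (0.266 and 4.13 FPKM in mRNA), reached 1 FPKM only in Drosha-deficient cells, so their direction was fixed by that minimum. Members of a gene family, such as Zscan4c, Zscan4d and Zscan4f, were counted separately. The part of either shift in the values below was not tested.

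The zinc finger genes differed little between the genotypes. A member counted as measured when it carried the status OK in the deposited table and reached 1 FPKM in at least 1 library. That held for 108 members in mRNA and 108 in long RNA. It was called higher or lower when log2((Drosha-deficient FPKM + 1)/(wild-type FPKM + 1)), the log2 difference, was at least 1 in size. In mRNA 5 of the 108 were higher and 3 lower, where 16.6% of all 14752 measured rows were called (8.64% higher, 7.93% lower). In long RNA 5 were higher and 1 lower, where 13.1% of 13933 measured rows were called (6.26% higher, 6.89% lower). The members called thus made up 7.41% and 5.56%, below the background in both fractions. With a pseudocount of 0.1 FPKM they made up 13.9% in mRNA and 10.2% in long RNA, against 24.6% and 20.4% of all rows, and with one of 5 FPKM 1.85% in each, against 6.26% and 4.67%. Levels were low: the median wild-type level was 3.41 FPKM in mRNA against 9.61 FPKM over all measured rows, and the pseudocount shrinks differences at such levels. Only 18 members in mRNA and 21 in long RNA reached 10 FPKM. A row measured only through the library where it is higher had to differ, so these counts describe the measured rows and not all members. Of the rest in mRNA, 13 members lacked the status OK and 12 stayed under 1 FPKM.

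**Figure D1:**
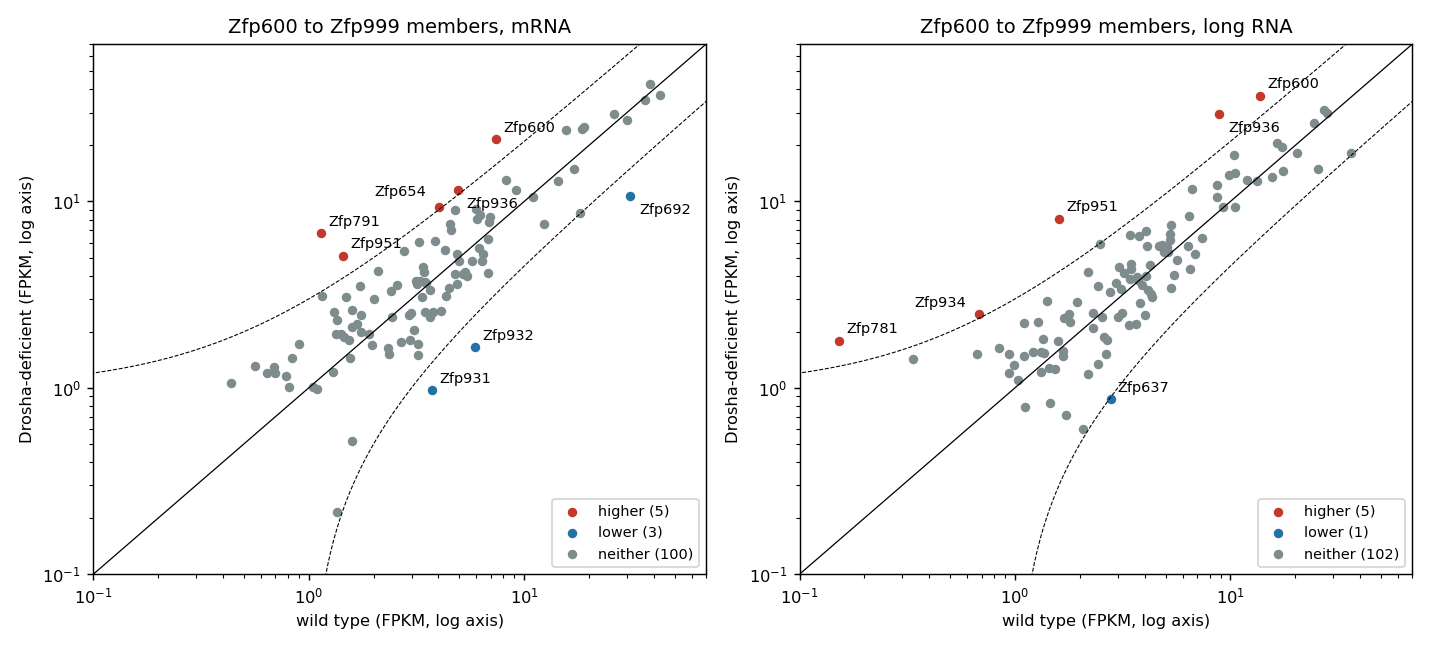
Level of each measured member in wild-type (x axis) and Drosha-deficient cells (y axis), in FPKM on log axes, for mRNA and long RNA; each point is 1 gene in 1 pair of libraries, the solid line marks equal levels and the dashed lines the 2-fold rule with its pseudocount. In mRNA 5 genes lie above and 3 below the dashed lines, and in long RNA 5 above and 1 below.

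The medians were slightly above 0, at 0.14 in mRNA and 0.11 in long RNA, where the medians of all measured rows were 0.0081 and -0.042. Without the 24 members whose locus overlaps another row, the mRNA median was 0.020 and the long RNA median 0.13. In mRNA 60 of 108 members lay above 0 (55.6%, against 50.5% of all rows), and in long RNA 66 (61.1%, against 46.6%). The values were also closer together than those of all rows, as were those of Zfp1 to Zfp599. Within 0.5 of 0 on the log2 scale lay 69.4% of the members and 54.6% of all rows in mRNA, and 73.1% and 63.0% in long RNA. For Zfp1 to Zfp599 these shares were 66.0% in mRNA and 77.9% in long RNA. Genes named Zfp1 to Zfp599 had medians of 0.16 and 0.14, and among 153 measured in mRNA 11 were higher and 1 lower, while among 154 in long RNA 6 were higher and none lower. Above 0 in mRNA lay 65.4% of them. The difference from the members was not tested. In the authors' deposited tables no member was marked significant in either fraction. The lowest q-value of a measured member there was 0.402 in mRNA and 0.915 in long RNA. Only 19 rows of each whole table were marked, and such q-values compare single libraries, not genotypes.

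**Figure D2:**
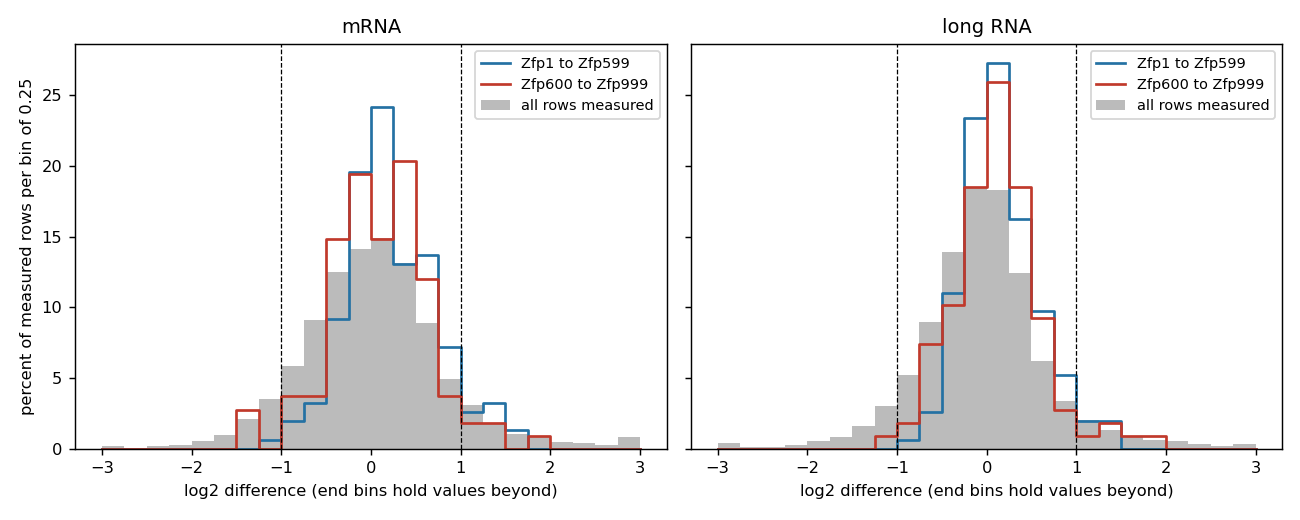
Share of measured rows (y axis, percent) in each bin of 0.25 of the log2 difference (x axis, Drosha-deficient over wild type), for all rows (grey bars), Zfp1 to Zfp599 (blue) and Zfp600 to Zfp999 (red). Both zinc finger sets peak near 0 and have few values beyond the dashed 2-fold lines, the member medians being 0.14 (mRNA) and 0.11 (long RNA).

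Zfp951, Zfp936 and Zfp600 were higher in both fractions, and no member was lower in both. With a pseudocount of 0.1 FPKM in place of 1, 5 members were higher in both, Zfp934 and Zfp758 being added, and Zfp677 and Zfp637 were lower in both. With one of 5 FPKM only Zfp600 kept the call in both: the mRNA differences of Zfp951 and Zfp936 were then 0.65 and 0.73. With the pseudocount of 1 FPKM, 3 of the 101 members measured in both were thus higher in both. Of 13322 rows, 4.58% were higher in both and 4.12% lower in both. Zfp951 had 1.45 FPKM in wild-type and 5.12 FPKM in Drosha-deficient mRNA, 3.54-fold higher, and 1.60 and 8.09 FPKM in long RNA, 5.04-fold higher. It lies on chromosome 5, 104802246 to 104860157 in RefSeq, and is protein-coding. Zfp936 (chromosome 7, 43114166 to 43192109) had 4.91 and 11.5 FPKM in mRNA, 2.33-fold higher, and 8.85 and 29.4 FPKM in long RNA, 3.33-fold higher. Both carry the promoter block printed above. Zfp600 (chromosome 4, 146156827 to 146198756) had 7.40 and 21.6 FPKM in mRNA, 2.92-fold higher, and 13.8 and 37.0 FPKM in long RNA, 2.69-fold higher. The value of Zfp600 is uncertain: its row belongs to a locus of 1338.75 kb that the tables share among 20 rows, while the RefSeq gene spans 41.9 kb. Neither motif stands in its promoter windows.

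At a smaller size, more members were higher than lower in both fractions. A log2 difference of at least 0.5 in both fractions was seen in 13 of the 101 members, these 3 included (12.9%, against 12.6% of all rows). One of at most -0.5 in both was seen in 3 (2.97%, against 14.6%). The same shares were 15.8% and 2.05% for Zfp1 to Zfp599. After the 3 genes above, the highest by the smaller of both differences was Zfp719 on chromosome 7, with 2.09 and 4.26 FPKM in mRNA, with 3.40 and 6.62 FPKM in long RNA. Zfp800 had 2.76 and 5.40 FPKM in mRNA, with 2.18 and 4.16 FPKM in long RNA, and Zfp704 had 3.25 and 6.05, and 3.75 and 6.56 FPKM. Zfp654, on chromosome 16, passed the rule in mRNA at 4.03 and 9.31 FPKM and not in long RNA at 6.66 and 11.7 FPKM. The 3 members at the other end were Zfp677, Zfp637 and Zfp655. Zfp677 had 1.35 and 0.215 FPKM in mRNA, with 2.07 and 0.603 FPKM in long RNA. Its log2 differences of -0.95 and -0.94 were just short of the rule. In both fractions it reached 1 FPKM only in wild type, so its signs were fixed. Zfp637 was the only member lower in long RNA, at 2.78 and 0.868 FPKM, and short of the rule in mRNA at 3.23 and 1.49 FPKM. It reached 1 FPKM in long RNA only in wild type, so its sign there was fixed. Centred on the median of all rows, its long RNA difference was -0.97 and the call ended. Zfp655 had 12.3 and 7.55 FPKM in mRNA, with 25.5 and 14.9 FPKM in long RNA. Zfp637, Zfp654 and Zfp846, like Zfp658 and Zfp873 below, fall outside the naming rule and were named after their values had been seen. Zfp846 had 4.51 and 7.59 FPKM in mRNA, with 4.06 and 6.94 FPKM in long RNA.

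Zfp791, Zfp692, Zfp932 and Zfp931 were called in mRNA and lay near 0 in long RNA. Zfp791 had the highest mRNA difference of all members, 1.14 and 6.75 FPKM, and 1.43 and 1.27 FPKM in long RNA. The other 3 were the members lower in mRNA. Zfp692 had 31.1 and 10.7 FPKM in mRNA, with 10.5 and 9.28 FPKM in long RNA. Zfp932, a KRAB zinc finger gene reported to bind endogenous retroviruses in ES cells, had 5.90 and 1.65 FPKM in mRNA, 3.58-fold lower, but 2.77 and 3.28 FPKM in long RNA. Zfp931 had 3.74 and 0.968 FPKM in mRNA, with 3.15 and 2.53 FPKM in long RNA. It reached 1 FPKM in mRNA only in wild type, so its sign there was fixed. In the opposite sense Zfp949 had 36.4 and 18.3 FPKM in long RNA, its log2 difference of -0.95 being close to the rule, and 3.27 and 3.75 FPKM in mRNA. These 5 are the members whose differences in the 2 fractions lay at least 1 apart (4.95% of 101, against 3.27% of all rows). Across the 101 members the differences in mRNA and long RNA had a Pearson r of 0.66 and a Spearman rho of 0.71, against 0.77 and 0.80 over all rows. Genes are not independent replicates, and both fractions may come from the same cells. The signs matched in 71.3% of members and 80.8% of all rows. Farther down the same ranking, Zfp609, a partner of the cohesin loader Nipbl, had 9.18 and 11.5 FPKM in mRNA, with 2.59 and 1.88 FPKM in long RNA. Zfp687 had 6.23 and 8.47, and 7.42 and 6.40 FPKM, and Zfp709 had 1.29 and 1.22, and 1.41 and 2.91 FPKM.

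**Figure D3:**
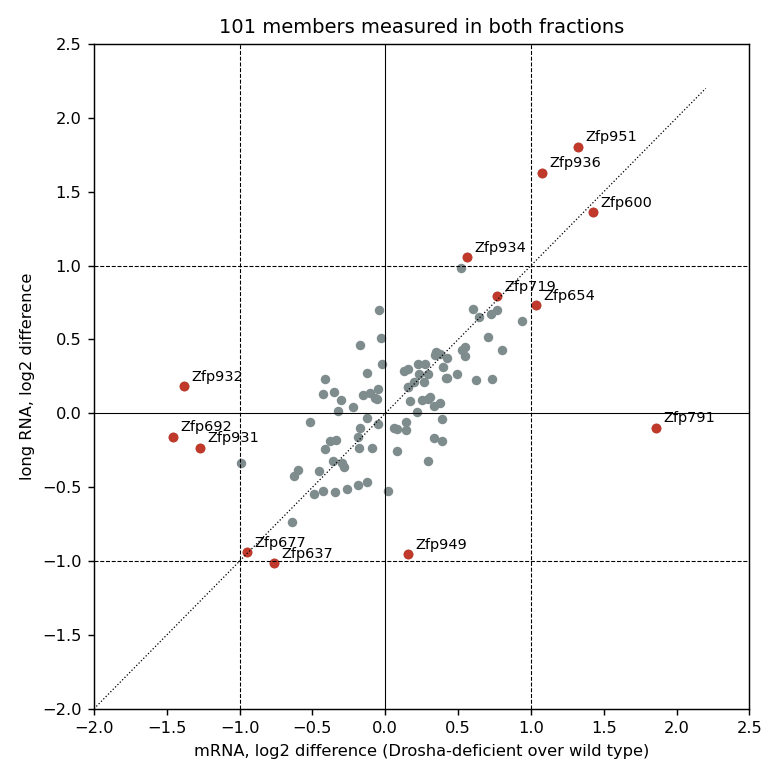
Log2 difference of each member measured in both fractions, mRNA on the x axis and long RNA on the y axis; dashed lines mark the 2-fold rule and the dotted line equal differences. Zfp951, Zfp936 and Zfp600 sit in the upper right corner, Zfp932, Zfp692, Zfp931 and Zfp791 lie far from the dotted line, and the corner for lower in both is empty.

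Of the 6 genes with the shared promoter block, 5 were measured in mRNA and 4 of them were called. They went in opposite directions: Zfp951 and Zfp936 higher, Zfp932 and Zfp931 lower. Zfp931, at 3.74 and 0.968 FPKM in mRNA, reached 1 FPKM only in wild type, so its place below 0 was fixed. In long RNA all 6 were measured, 2 were higher, none was lower, and 5 of 6 lay above 0. Zfp873 had 1.35 and 2.31 FPKM in mRNA, with 3.45 and 4.36 FPKM in long RNA. Zfp640 did not reach 1 FPKM in mRNA and had 0.335 and 1.44 FPKM in long RNA. It was measured there only through the library where it was higher, so its place above 0 was fixed. Of the members whose window lacks the block, 3 of 86 were called in mRNA and 3 of 87 in long RNA. Over all measured rows 16.6% were called in mRNA and 13.1% in long RNA. The block was read from a window of Zfp951 and picked with these values in view, so the counts are a description only.

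The tables place the members on 19 chromosomes. Members whose starts lie at most 1 Mb from the next were joined, and groups of at least 3 were taken as a cluster, which gave 14 clusters with 69 members and left 64 outside. Only members were joined, so one counted as outside can still lie among zinc finger genes listed under older names. Zfp600 and Zfp931, both called in mRNA, are such cases. In mRNA 1 of 60 measured members in clusters was called, against 7 of 48 outside. In long RNA these counts were 3 of 63 and 3 of 45. Over all measured rows 16.6% were called in mRNA and 13.1% in long RNA, so the 14.6% outside clusters in mRNA was near the background. The medians were 0.14 in and 0.15 outside clusters in mRNA, and 0.15 and 0.089 in long RNA. With neighbours at most 0.5 Mb apart, the medians outside clusters turned to -0.047 and -0.030. Cluster medians lay above 0 in both fractions in 7 clusters and below 0 in both in 3. Some medians include members whose sign was fixed because they reached 1 FPKM in only 1 library. Zfp607 (0.782 and 1.15 FPKM in mRNA) is such a member.

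The cluster on chromosome 7 from Zfp936 to Zfp819 (43187170 to 43618285) stood highest. All 5 of its members lay above 0 in mRNA, and so did 4 of the 5 in long RNA. The medians were 0.77 and 0.63. Next to Zfp936 and Zfp719, Zfp658 had 1.15 and 3.11 FPKM in mRNA, with 1.10 and 2.24 FPKM in long RNA. Zfp819, a KRAB zinc finger gene of ES cells reported to repress retroelements, had 4.59 and 7.06 FPKM in mRNA, with 5.28 and 7.43 FPKM in long RNA. Zfp715, between Zfp936 and Zfp658, had 3.17 and 3.61, and 6.33 and 5.79 FPKM. On chromosome 13 the cluster from Zfp808 to Zfp934 had medians of 0.37 and 0.40. Its highest member, Zfp934, had 0.561 and 1.30 FPKM in mRNA and was higher in long RNA at 0.680 and 2.49 FPKM. Zfp808 had 3.14 and 3.74, and 5.22 and 6.21 FPKM. Zfp934 in both fractions, and Zfp935 in mRNA (0.694 and 1.19 FPKM), reached 1 FPKM only in Drosha-deficient cells. Their places above 0 were thus fixed by the minimum. The other cluster of chromosome 13, from Zfp640 to Zfp738, ranged in long RNA from Zfp712 (1.73 and 0.714 FPKM) to Zfp640. Both reached 1 FPKM in only 1 long RNA library, so their signs were fixed. On chromosome 10 Zfp781 was higher in long RNA at 0.152 and 1.79 FPKM, and was not measured in mRNA at 0.129 and 0.115 FPKM. It reached 1 FPKM only in Drosha-deficient long RNA, so its place above 0 was fixed. Its neighbour Zfp938 had 4.87 and 3.61 FPKM in mRNA, with 5.07 and 5.72 FPKM in long RNA.

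The largest cluster, 11 members on chromosome 17 from Zfp677 to Zfp945, had a median of -0.076 in mRNA, against 0.28 in long RNA. Apart from Zfp677, all of its members lay above 0 in long RNA, up to Zfp758 at 2.48 and 5.88 FPKM, with 0.983 on the log2 scale just short of the rule. Zfp945 had 3.87 and 6.11 FPKM in mRNA, with 10.5 and 14.1 FPKM in long RNA, and Zfp820 had 1.75 and 2.00, and 3.21 and 4.13 FPKM. A second cluster of chromosome 17, from Zfp871 to Zfp763, had medians of 0.038 and -0.18. None of its 6 members was called, and 5 of the 6 lay below 0 in long RNA. Zfp871 had 4.86 and 5.21 FPKM in mRNA, with 17.5 and 14.5 FPKM in long RNA. Zfp763 was its highest at 3.39 and 4.43 FPKM in mRNA, and Zfp811 its lowest in long RNA at 2.64 and 1.52 FPKM.

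In 3 clusters both medians lay below 0. On chromosome 6, from Zfp786 to Zfp775, the medians were -0.29 and -0.39, with Zfp746 at 6.78 and 4.14 FPKM in mRNA and Zfp775 at 2.42 and 1.34 FPKM in long RNA. On chromosome 15, from Zfp623 to Zfp647, they were -0.29 and -0.34, and Zfp647 was the lowest in both at 2.34 and 1.63, and 2.17 and 1.19 FPKM. On chromosome 7, from Zfp787 to Zfp772, they were -0.18 and -0.24, between Zfp787 (3.67 and 2.41 FPKM in mRNA) and Zfp772 (1.46 and 1.88 FPKM). None of the members in these 3 clusters was called. In the long row of genes on distal chromosome 7 from Zfp771 to Zfp668, Zfp771 had 4.75 and 9.01 FPKM and Zfp688 18.2 and 8.68 FPKM in mRNA, so neighbours differed in sign. Zfp646 and Zfp668 in that row share 1 locus in the tables.

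**Figure D4:**
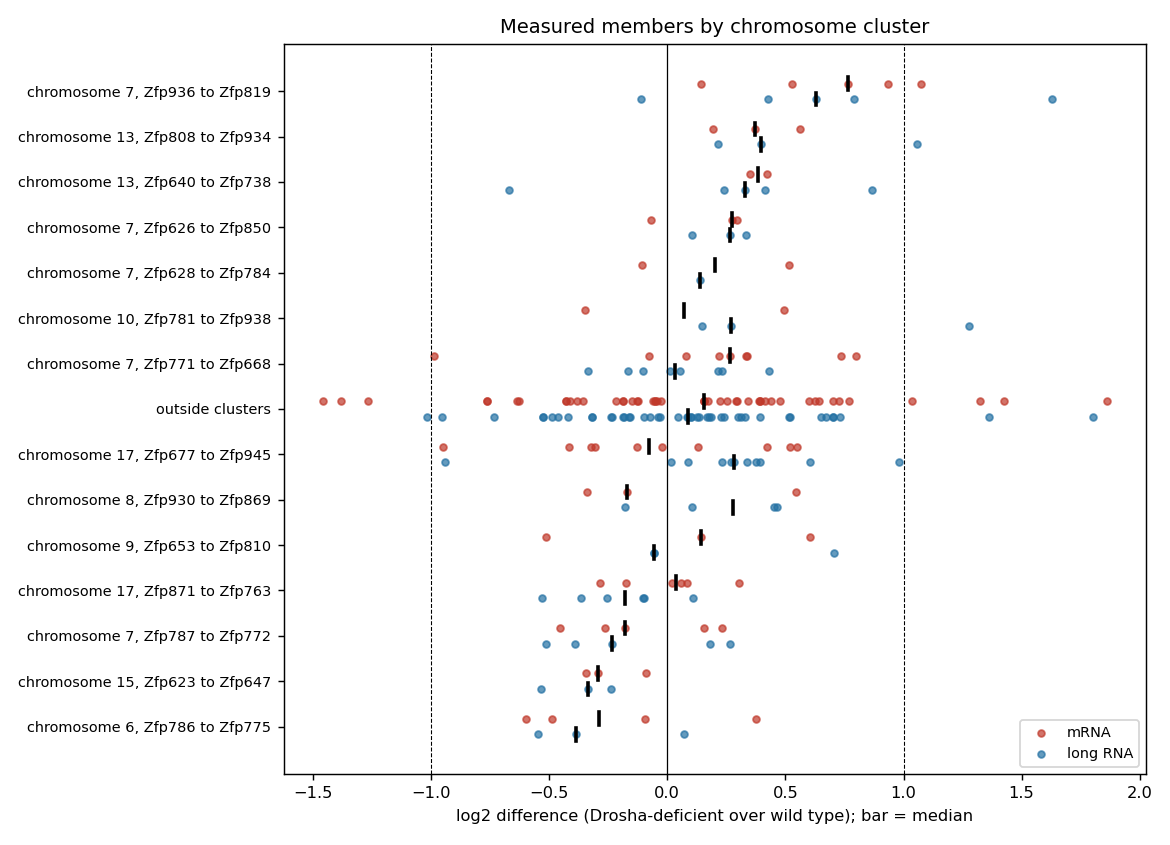
Log2 difference (x axis, Drosha-deficient over wild type) of each measured member, by chromosome cluster (rows, named by the first and last member), in mRNA (red) and long RNA (blue); black bars are medians and dashed lines the 2-fold rule. The chromosome 7 cluster from Zfp936 to Zfp819 has the highest medians, 0.77 and 0.63, and the clusters of chromosome 15 (-0.29 and -0.34) and chromosome 6 (-0.29 and -0.39) lie at the low end.

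Of the 28 members listed for known roles, 27 were measured in mRNA, where 2 were higher (Zfp600 and Zfp936) and 1 lower (Zfp932). In long RNA the same 2 of 23 measured were higher and none was lower. Over all measured rows 16.6% were called in mRNA (8.64% higher, 7.93% lower) and 13.1% in long RNA (6.26% higher, 6.89% lower). Beyond 0.5 on the log2 scale lay 12 of the 27 (44.4%, against 30.6% of all measured members), 9 of them above and 3 below 0. In long RNA 8 of 23 lay beyond 0.5 (34.8%, against 26.9%). Of all measured rows 54.6% in mRNA and 63.0% in long RNA lay within 0.5, so both shares were near the background. Zfp809, the KRAB zinc finger protein that brings TRIM28 to the primer binding site of murine leukemia virus in ES cells, had 8.26 and 13.1 FPKM in mRNA, with 10.4 and 17.6 FPKM in long RNA. Its log2 differences of 0.61 and 0.70 did not meet the rule. Its neighbour Zfp810 had 1.53 and 1.79, and 2.54 and 2.40 FPKM. Zfp706, a small zinc finger gene tied to the exit from pluripotency, was among the most abundant at 42.7 and 37.4 FPKM in mRNA, with 20.4 and 18.2 FPKM in long RNA. Zfp740 had 38.4 and 42.8, and 27.2 and 30.9 FPKM, and Zfp639 36.4 and 34.9, and 24.5 and 26.3 FPKM. Zfp622, which takes part in ribosome assembly, had 18.9 and 25.1 FPKM in mRNA, with 16.4 and 20.6 FPKM in long RNA. Zfp644, a partner of the histone methyltransferases G9a and GLP, had 15.7 and 24.2 FPKM in mRNA. Zfp830, a splicing factor, had 14.3 and 12.8, and 11.9 and 13.1 FPKM. Zfp961, Zfp664, Zfp710 and Zfp868 completed the 10 highest in mRNA together with Zfp692. Of these 10 only Zfp692 was called in mRNA, against 16.6% of all measured rows.

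Genes of restricted expression were low. Zfp703, a corepressor of epithelial tissues, had 1.58 and 0.518 FPKM in mRNA and stayed under 1 FPKM in long RNA. Zfp750, a regulator of epidermal differentiation, had 1.59 and 2.60 FPKM in mRNA, in a locus of 221 kb that overlaps 2 other rows. Zfp711, an X-linked gene of neural development, had 0.342 and 0.863 FPKM in mRNA and was not measured in either fraction. Zfp827, whose human counterpart recruits the NuRD complex to telomeres, had 1.49 and 3.05 FPKM in mRNA, with 0.841 and 1.64 FPKM in long RNA. In short RNA 4 members had the status OK, and 129 were not measured. There 33.2% of 2597 measured rows were called (14.8% higher, 18.4% lower). Among the 4, Zfp945 was higher at 0.543 and 3.49 FPKM, Zfp664 lower at 4.51 and 1.28 FPKM, while Zfp949 had 11.5 and 15.3 FPKM and Zfp644 3.46 and 2.13 FPKM.

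The tables hold further genes that RefSeq now names within this range but that the tables give under an older name. They fall outside the rule and were matched through RefSeq synonyms: of 41 such RefSeq symbols, 25 had a row. Among 17 measured in mRNA, 3 were higher and none lower, with a median log2 difference of 0.41. Among 19 measured in long RNA, again 3 were higher and none lower, and the median was 0.67. Over all rows 8.64% were higher and 7.93% lower in mRNA, and 6.26% and 6.89% in long RNA. On chromosome 4, around Zfp600, all 9 lay above 0 in both fractions, from 0.087 to 1.42 in mRNA and from 0.48 to 1.52 in long RNA. Other rows of the Zfp600 locus, without a matched symbol, went both ways. Rex2 had 7.26 and 22.5 FPKM in mRNA, with 14.1 and 33.6 FPKM in long RNA. Gm13142 had 1.84 and 1.13 FPKM in mRNA, with 2.76 and 1.70 FPKM in long RNA. Zfp980 had 8.79 and 25.3 FPKM in mRNA, with 16.8 and 39.4 FPKM in long RNA, and Zfp981 11.3 and 30.3, and 17.4 and 51.8 FPKM. Zfp981 and Zfp992 share the locus of Zfp600, and these genes may share reads, so their values are not independent. On chromosome 7 Zfp977, which carries TGCCAGTCAG and lies next to the Zfp936 cluster, had 1.59 and 5.88 FPKM in mRNA, with 3.79 and 15.7 FPKM in long RNA. Its neighbours Zfp975 and Zfp976, which carry the letters too, had 1.68 and 3.35 FPKM and 3.13 and 4.71 FPKM in mRNA. On chromosome 2 the carriers under older names were low or not measured, such as Zfp972 at 1.61 and 1.25 FPKM in mRNA. The member Zfp931, also a carrier on chromosome 2, was lower in mRNA at 3.74 and 0.968 FPKM. Zfp638, an RNA-binding zinc finger gene linked to silencing of foreign DNA, had 20.3 and 40.1 FPKM in mRNA, with 34.7 and 65.1 FPKM in long RNA, short of the rule in both.

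**Figure D5:**
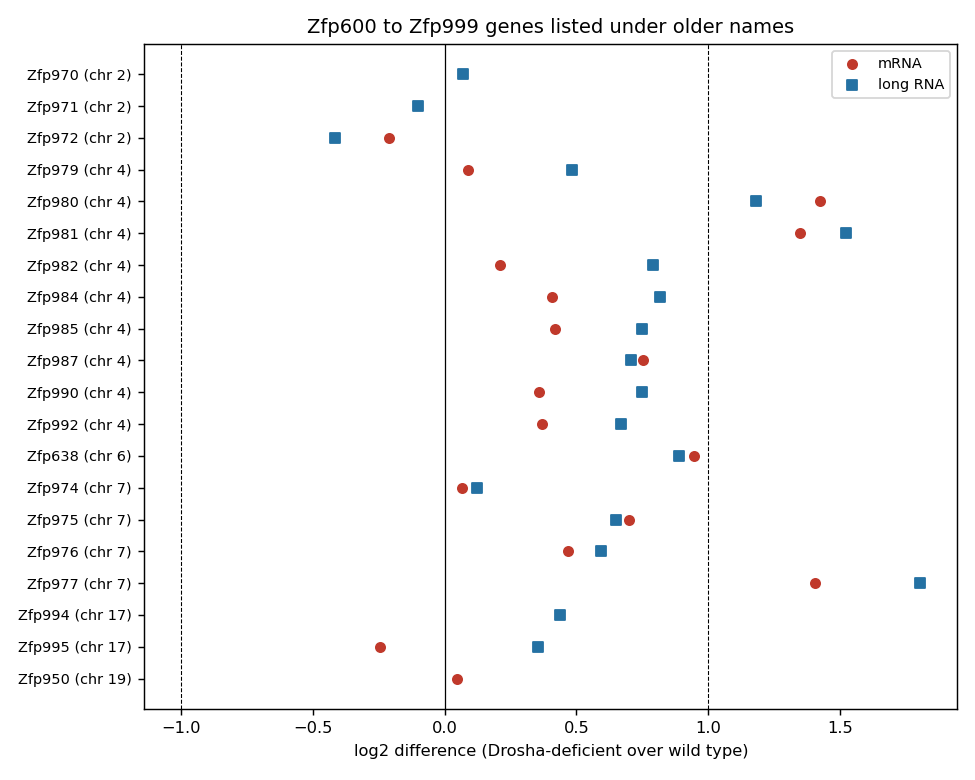
Log2 difference (x axis, Drosha-deficient over wild type) of RefSeq genes between Zfp600 and Zfp999 that the tables list under older names, in mRNA (circles) and long RNA (squares), by chromosome; rows not measured in a fraction have no point. All 9 genes of chromosome 4 lie to the right of 0 in both fractions, and Zfp977, Zfp980 and Zfp981 lie beyond the 2-fold line in both.

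The genes through which KRAB zinc finger proteins silence their targets were described beside them, from a list of 33. All 33 were measured in mRNA, where 4 were higher and none lower and the median log2 difference was 0.48. Of the 32 measured in long RNA, again 4 were higher and none lower, and the median was 0.31. The list's called share, all of it higher, was 12.1% in mRNA and 12.5% in long RNA, against 16.6% and 13.1% of all rows. Of all rows 8.64% in mRNA and 6.26% in long RNA were higher, and the medians were 0.0081 and -0.042. Trim28 had 638 and 840 FPKM in mRNA, with 548 and 761 FPKM in long RNA, and Setdb1 had 32.9 and 41.0, and 27.8 and 34.2 FPKM, so neither was called. Smarcad1, a chromatin remodeller that works with TRIM28, was higher in both fractions, at 21.8 and 49.7 FPKM and at 34.7 and 71.3 FPKM. Sumo2, a modifier used in this pathway, was higher too, at 6.23 and 18.9, and 6.18 and 14.9 FPKM. In mRNA only, Dnmt3a was higher at 31.1 and 70.6 FPKM and Dnmt3b at 39.0 and 94.8 FPKM. In long RNA only, Hdac1 was higher at 2.32 and 5.69 FPKM. Zfp57, the KRAB zinc finger gene that protects imprints, was higher in long RNA at 46.0 and 112 FPKM and not called in mRNA at 129 and 209 FPKM.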

How the data were processed

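Gene-level values of wild-type and Drosha-deficient ES cells were used for mRNA, long RNA and, briefly, short RNA, 1 library per genotype and fraction. The long RNA table was matched to the samples titled total RNA by elimination. The authors deposited FPKM values in tables of Cuffdiff layout, per the file headers. The build mm10/GRCm38 and the tools TopHat2 2.0.10, bcl2fastq 1.8.4, Cuffdiff and Cufflinks 2.1.1 were used, per the submitters' processing notes. Libraries followed a small RNA kit protocol, per the labels' protocols. The annotation and the strand setting used are not stated in those sources, so reads of overlapping genes cannot be assigned with certainty. The authors' log2 fold change equals the log2 ratio of both deposited FPKM values for the members. The authors' p-value and q-value rest on 1 library per genotype.

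With 1 library per genotype no test was possible, and count models were not applied to FPKM. The log2 difference used a pseudocount of 1 FPKM, which shrinks differences of low genes. Fold values of single genes are ratios without it. Locus coordinates come from the tables and gene coordinates from RefSeq (GRCm38.p6), which held 132 of the 133 symbols. Members, lists and the rule for named genes were chosen with earlier results of these data known. The rule named members higher or lower in both fractions, the 10 most abundant in mRNA, 37 genes listed for known roles (28 of them members), the extremes of each cluster with at least 3 measured members, and the 4 members in each direction with the largest gap between fractions. A planned split by KRAB box was not made, because protein sequences were not used here. Alternatives changed the pseudocount, the minimum level, the status filter, the centring, the cluster distance and, chosen after seeing the data, the exclusion of overlapping loci. Computations used Python 3.11.15 and pandas 2.3.3, and the calling step was checked on simulated data.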

Additional observations from a re-analysis of the deposited data

How the results depend on the processing

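No paired analysis was possible because each genotype had 1 library per fraction, and for the same reason no library could be left out. Counts of called members depended most on the pseudocount. With one of 0.1 FPKM, 8 members were higher and 7 lower in mRNA, 8 and 3 in long RNA, and 5 higher and 2 lower in both. With one of 5 FPKM, 1 was higher and 1 lower in mRNA, 2 and 0 in long RNA, and 1, Zfp600, was higher in both. With a minimum of 5 FPKM, 3 members were higher and 0 lower in long RNA, and the long RNA median in clusters was 0.25. Centring on the median of all rows left 0 lower in long RNA, Zfp637 losing its call. Without members in clusters, 2 were higher in long RNA. Without members whose locus overlaps another row, the mRNA median was 0.020. With neighbours at most 0.5 Mb apart, the medians outside clusters turned to -0.047 in mRNA and -0.030 in long RNA. The cause of these shifts was not tested. Of 136 summary values under all alternatives, 117 kept their sign and stayed within 0.1 on the log2 scale, or within 1.5 times for counts. A split by KRAB box and the exclusion of members with shared protein runs were not run, since protein sequences were not used here.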
